A study of Mus musculus with 12 samples.

Results

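The nuclear genes for the subunits of the mitochondrial respiratory chain were examined in retinal mRNA from mice kept in normoxia or exposed to oxygen-induced retinopathy (OIR). They were taken from the deposited count table by symbol, as Nduf genes of the a, b, c, s and v series, Sdha to Sdhd, all Uqcr genes, Cyc1, all symbols that start with Cox4 to Cox8 and all that start with Atp5. Of 86 such entries, 83 held at least 10 reads over the 12 libraries and were kept, out of 35976 entries in the table and 24484 with any read. Atp5c1-ps, with 9 reads, Uqcrh-ps1, with 7, and Cox8c, with 0, were left out. The 83 genes divided into 35 for complex I, 4 for complex II, 9 for complex III, 18 for complex IV and 17 for complex V. The rule used names and a read minimum only and no difference between groups, but it was set with earlier results of these data known. The symbols also take in Atp5s, Atp5sl and Cox7a2l, which are named after a complex but are not counted among its subunits, and the counts of calls without them were the same in all 5 comparisons.

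The 12 libraries formed 4 groups of 3, with normoxia and OIR for mice labelled WT and the same pair for mice labelled Casp1 KO, a knockout of the gene for the inflammatory protease caspase-1. WT pups were C57BL/6 mice, and in the OIR model they were held in 75% oxygen from postnatal day 7 to 12, returned to room air and sampled at day 15, 3 days later, while the normoxic pups stayed in room air. The Casp1 KO OIR libraries are likewise labelled as 3 days post OIR. The sources used here do not state the age and oxygen level of the groups labelled Casp1 KO, the allele or the number of animals in a library. Pups of both sexes were used. RNA came from whole retina, where fewer cells of a type and less RNA per cell cannot be told apart, and nothing says that the 3 libraries of a group came from separate animals, so the p-values measure the spread between these libraries, which may be technical.

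The respiratory chain lies in the inner mitochondrial membrane. Complex I (NADH dehydrogenase) and complex II (succinate dehydrogenase) pass electrons to ubiquinone, complex III passes them to cytochrome c, complex IV (cytochrome c oxidase) passes them to oxygen, and complex V (ATP synthase) uses the resulting proton gradient to make ATP. Complexes I, III, IV and V combine subunits from mitochondrial and nuclear genes, whereas all subunits of complex II are nuclear. Photoreceptors, whose inner segments are packed with mitochondria, make the retina one of the tissues with the highest oxygen use.

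Total reads ran from 3391203 to 22815830 per library, the deepest being WT normoxia replicate 2, and the 83 genes took 1.53% to 1.77% of them. Levels are given in CPM, that is, reads relative to library size. A gene without reads could have up to 3 reads' worth of level, which ran from 0.131 to 0.885 CPM over the libraries, for counting error only. Casp1 itself went against its label, with 0 to 3 reads in each library labelled WT and 10 to 45 in each library labelled Casp1 KO, so these groups are called by their labels only. WT OIR replicate 3 stood apart for the genes described here: over 73 of them, the median difference from the 12-library mean was 0.0960 on the log2 scale, against -0.0959 and -0.156 in WT OIR replicates 1 and 2. Results that turn on this library are also given without it. It was singled out by the levels of these same genes, so leaving it out lowers WT OIR for them by selection.

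Markers of retinal cells were present in all libraries, and no listed marker was at 0 in all of them. The 7 rod markers summed to 35963 to 42968 CPM, with overlapping groups. The 6 cone markers summed to 1521 to 1543 CPM in WT normoxia and 1500.1 to 1676 CPM in WT OIR, which overlapped, and to 1458 to 1529 CPM in Casp1 KO normoxia and 1591 to 1765 CPM in Casp1 KO OIR, which did not. The 5 amacrine cell markers summed to 613 to 669 CPM in WT normoxia and 396 to 495 CPM in WT OIR, without overlap, and to 494 to 541 CPM and 529 to 569.9 CPM in the Casp1 KO groups, with overlap. The 5 bipolar cell markers summed to 739 to 768 CPM and 617 to 743 CPM in the WT groups and to 625 to 675 CPM and 658 to 689.8 CPM in the Casp1 KO groups, with overlap in both. The 6 ganglion cell markers summed to 2498 to 2951 CPM in normoxia and 1245 to 1544 CPM in OIR over both genotypes. The 5 Muller glia markers summed to 2636 to 2793 CPM in WT normoxia, 2082 to 2218 CPM in WT OIR, 1892 to 2043 CPM in Casp1 KO normoxia and 2752 to 2974 CPM in Casp1 KO OIR. The 5 markers of retinal pigment epithelium summed to 597 to 613 CPM in Casp1 KO normoxia and 896 to 972 CPM in Casp1 KO OIR, and to 534 to 567 CPM and 609 to 678 CPM in the WT groups. The 5 lens markers went from 352 to 362 CPM in Casp1 KO normoxia to 589 to 672 CPM in Casp1 KO OIR. Endothelial markers, 5 in number, summed to 95.9 to 111 CPM and 102 to 121 CPM in the Casp1 KO groups, which overlapped, and to 86.3 to 98.8 CPM and 100 to 156 CPM in the WT groups. In WT OIR they were lowest in replicate 3, at 100.5 CPM against 147 and 156 CPM, and so were the 5 lens markers, at 212 CPM against 475 and 380.2 CPM, and the 5 red blood cell markers, at 90.9 CPM against 277 and 397 CPM. The 5 microglia markers summed to 41.4 to 59.0 CPM in normoxia and 70.8 to 92.9 CPM in OIR. The part of these cell types in the results on respiratory chain genes was not tested.

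Because the libraries were made from the 3' ends of transcripts, reads are not expected to grow with transcript length. Levels of different genes still depend on how reads that match several genes were handled, which is not given in the sources used here. Atp5g2, whose 3' end is shared with other annotated genes, was at 3.03 CPM, so a low level need not mean low expression. Most respiratory chain genes were well expressed. Their mean levels over the 12 libraries had a median of 182 CPM, 73 of the 83 reached 10 CPM and 58 reached 100 CPM. Cox6c, a small membrane subunit of complex IV, was highest at 1133 CPM, followed by Atp5b, the catalytic beta subunit of the ATP synthase, at 646 CPM and Uqcrh, the hinge protein of complex III, at 640.4 CPM. At the low end Cox7b2 had 20 reads, all in WT normoxia replicate 2, and Cox6a2, the muscle form of a complex IV subunit, had at most 8 reads in a library, so no fold change is given for either.

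Summed over the 83 genes, the level was 16928 ± 350 CPM (SD, n = 3) in WT normoxia, 16094 ± 1819 CPM in WT OIR, 17347 ± 175 CPM in Casp1 KO normoxia and 16182 ± 573 CPM in Casp1 KO OIR. In Casp1 KO the OIR libraries, at 16021, 16818 and 15708 CPM, all lay below the normoxia libraries, at 17355, 17168 and 17517 CPM. In WT the OIR libraries were at 15140, 14950 and 18191 CPM, so that replicates 1 and 2 lay below and replicate 3 above all normoxia libraries, at 16527, 17088 and 17169 CPM. By complex, the Casp1 KO sums were lower in OIR by 7.39% for complex I, 3.54% for III, 10.2% for IV and 5.95% for V, without overlap for I, IV and V. Complex II went the other way, with 465, 506 and 490 CPM in Casp1 KO OIR against 414, 424 and 447 CPM in Casp1 KO normoxia, 13.7% higher and without overlap. In WT every complex overlapped between OIR and normoxia, and in each the overlap rested on WT OIR replicate 3. Replicates 1 and 2 lay below all WT normoxia libraries in all 5 complexes, for example at 363 and 382 CPM against 419 to 441 CPM for complex II and at 3642 and 3714 CPM against 4128 to 4348 CPM for complex V.

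**Figure D1:**
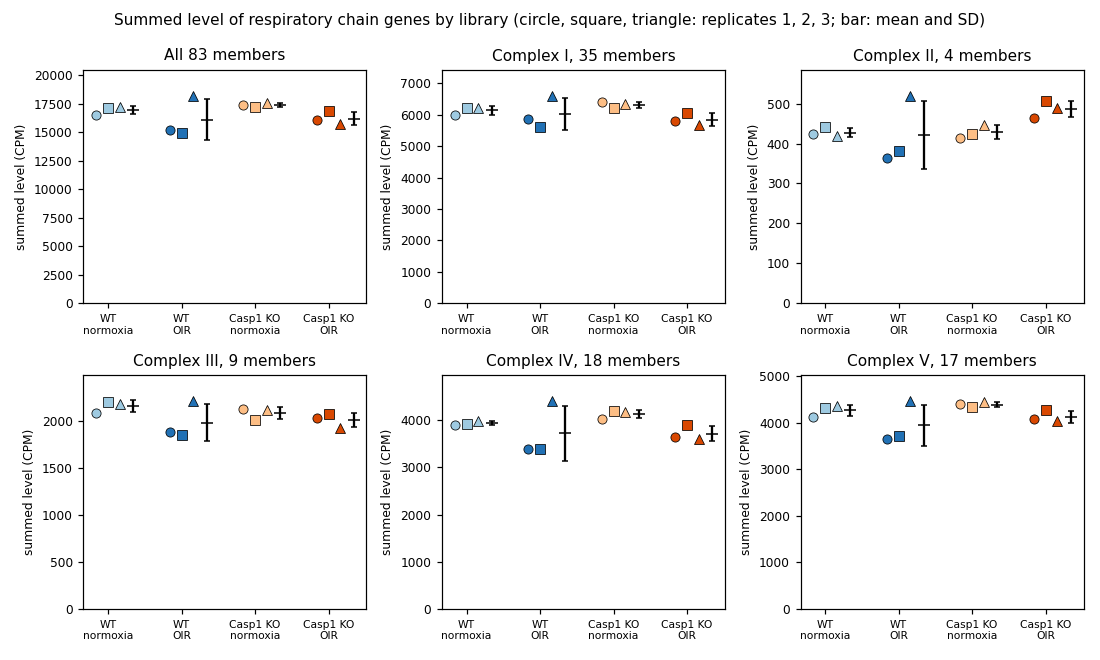
Summed level of the members in CPM (y axis, from 0) in each library of the 4 groups (x axis), for all 83 genes and for each complex. Points are libraries, with the replicate given by the shape, and bars are the mean and SD of 3. Casp1 KO OIR lies below Casp1 KO normoxia for complexes I, IV and V and above it for complex II, and the triangle of WT OIR, replicate 3, lies at 18191 CPM for all genes against 15140 and 14950 CPM for its partners.

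The comparison of OIR with normoxia in Casp1 KO gave the most calls. Of 82 genes tested, 3 rose and 13 fell at an adjusted p under 0.05. The background for these counts was 2.61% of all genes tested called higher and 2.03% called lower, or 5.39% and 4.38% of genes with a mean of at least 10 CPM. The 13 that fell were Ndufb2, Ndufb5, Ndufb11 and Ndufs4 of complex I, Uqcrb of III, Cox6c, Cox7a2, Cox7b and Cox7c of IV and Atp5f1, Atp5h, Atp5j2 and Atp5k of V, while the 3 that rose were Sdha of II, Uqcrc1 of III and Cox4i2 of IV. The median log2 fold change of the 82 was -0.11, or -0.12 over the 73 of at least 10 CPM, against 0.00 over all genes (-0.00195) and 0.02 over genes of at least 10 CPM. Fitted values were below 0 for 50 of the 82 (61.0%), against 50.2% of all genes tested and 47.3% of those of at least 10 CPM. Among them were 26 of 35 in complex I and 0 of 4 in complex II. The levels of the groups did not overlap for 11 genes that were higher and 26 that were lower in OIR, where 8.56% of all genes tested and 13.9% of those of at least 10 CPM were higher without overlap and 8.58% and 13.4% were lower.

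Leaving out a library changed the number that fell from 13 to 7 without Casp1 KO normoxia replicate 1 or Casp1 KO OIR replicate 3 and to 8 without Casp1 KO normoxia replicate 3, and without Casp1 KO OIR replicate 3 the number that rose was 5. Cox4i2, Uqcrc1, Cox7b, Cox7a2 and Atp5f1 passed the threshold under each of the 13 alternatives run, and the other 11 lost it under at least 1.

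**Figure D2:**
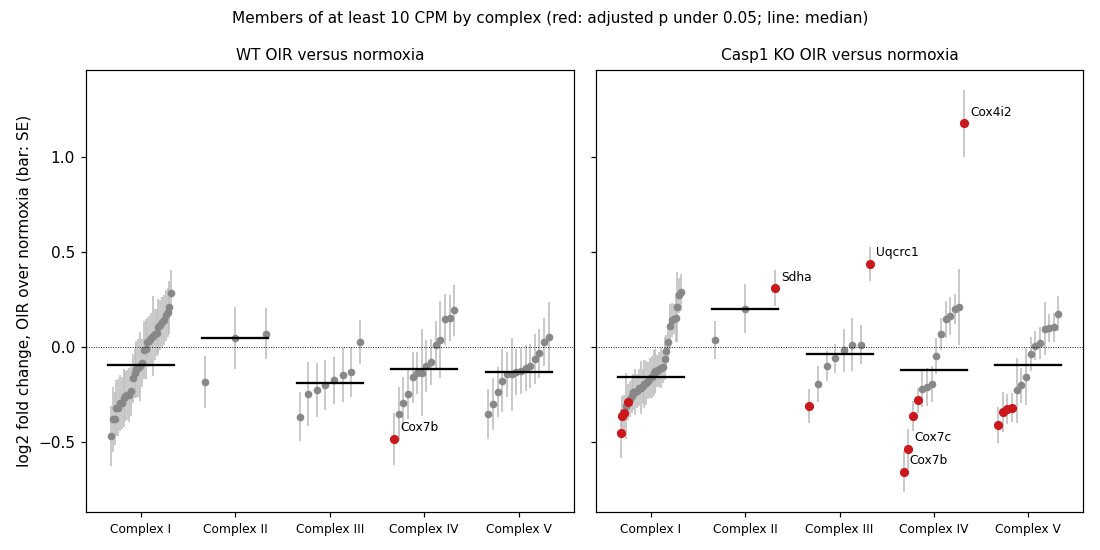
Log2 fold change of OIR over normoxia (y axis) for the members of at least 10 CPM by complex (x axis), in WT on the left and Casp1 KO on the right. Each point is a gene with its SE, red points have an adjusted p under 0.05 and black lines are medians per complex. In Casp1 KO, 13 red points lie below 0 in complexes I, III, IV and V and 3 lie above it, Cox4i2 highest at 1.18, while in WT the single red point is Cox7b at -0.48.

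Their promoters were searched for the short motifs of factors known to drive nuclear respiratory genes. RefSeq (GRCm38.p6) gave 69 of the 83 genes a promoter, from 250 bases before to 50 after the start. The core of the NRF1 site, GCGCANGC, was found on either strand in 33.3% of the 69 and in 10.1% of 27025 promoters, an ETS core (CCGGAAG) in 21.7% and 9.12%, a YY1 core (AAGATGGCG) in 10.1% and 1.49% and an ESRRA core (TCAAGGTCA) in 2.9% and 0.41%. The genes called in Casp1 KO divided as follows for the NRF1 core: 3 of the 11 that fell and have a promoter entry (Atp5h, Atp5j2 and Atp5k) and both that rose and have one (Sdha and Uqcrc1). The ETS core was in 2 of the 11 and the YY1 core in 2 of the 11, the ESRRA core in 0, and none of these 3 was in the 2 that rose. The promoters of Sdha and Uqcrc1, which rose, and of Cox7b and Atp5k, which fell, are shown 5' to 3' on the strand of the gene, with the matches in capitals. In Atp5k and Uqcrc1 the run GCGCATGCGC holds a match on each strand, and CTTCCGG in Atp5k is the ETS core on the other strand. Cox7b holds no match to any of the 4.
Sdha, chr13:74350191-74350490, minus strand: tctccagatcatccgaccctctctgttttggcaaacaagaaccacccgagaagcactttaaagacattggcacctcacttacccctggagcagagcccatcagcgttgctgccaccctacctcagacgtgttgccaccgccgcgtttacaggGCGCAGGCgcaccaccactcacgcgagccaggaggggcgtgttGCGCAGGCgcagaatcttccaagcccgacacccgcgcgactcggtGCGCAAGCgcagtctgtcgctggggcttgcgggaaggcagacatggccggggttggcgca
Uqcrc1, chr9:108936398-108936697, plus strand: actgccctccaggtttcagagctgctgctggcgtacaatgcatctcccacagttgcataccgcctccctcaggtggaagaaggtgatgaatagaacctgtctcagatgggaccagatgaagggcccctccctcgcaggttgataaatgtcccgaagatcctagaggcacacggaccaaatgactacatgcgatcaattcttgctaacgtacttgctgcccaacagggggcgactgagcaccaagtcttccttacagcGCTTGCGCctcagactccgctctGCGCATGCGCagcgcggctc
Cox7b, chrX:106015450-106015749, plus strand: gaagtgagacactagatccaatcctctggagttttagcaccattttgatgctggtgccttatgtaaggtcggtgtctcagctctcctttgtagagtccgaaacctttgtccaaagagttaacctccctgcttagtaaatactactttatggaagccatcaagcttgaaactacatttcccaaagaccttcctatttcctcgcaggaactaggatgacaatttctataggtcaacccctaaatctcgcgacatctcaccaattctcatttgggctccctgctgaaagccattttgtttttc
Atp5k, chr5:108434350-108434649, minus strand: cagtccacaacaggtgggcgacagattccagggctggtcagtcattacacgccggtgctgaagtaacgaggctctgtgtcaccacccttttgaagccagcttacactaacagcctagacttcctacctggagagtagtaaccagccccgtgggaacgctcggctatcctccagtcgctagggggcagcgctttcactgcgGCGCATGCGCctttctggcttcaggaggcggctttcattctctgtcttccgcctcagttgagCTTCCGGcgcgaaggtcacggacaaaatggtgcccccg
A match is a run of letters, not a measured site, and the motif shares were not tested.

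Complex IV held the widest differences. Cox4i2 encodes the alternative form of subunit 4, known in lung and in oxygen-sensing cells and as a gene that low oxygen induces, and lies on chromosome 2 from 152754173 to 152765037 (GRCm38, plus strand, 4 exons, no overlapping gene). In Casp1 KO it was at 25.5, 25.6 and 28.5 CPM in normoxia and at 56.5, 60.004 and 62.1 CPM in OIR. All OIR libraries were above all normoxia libraries, a 2.26-fold rise (log2 1.18 ± 0.18 SE, adjusted p = 5.61e-09). In WT it was at 36.1, 31.3 and 39.1 CPM in normoxia and at 49.96, 38.3 and 21.99 CPM in OIR, so the OIR libraries lay on both sides of the normoxia libraries (log2 0.04 ± 0.20, adjusted p = 0.958). The interaction, the change in Casp1 KO minus the change in WT, was 1.12 ± 0.27 on the log2 scale (adjusted p = 0.00702). It was 0.85 with an adjusted p of 0.0565 without WT OIR replicate 3, and missed the threshold also by DESeq2 (0.0522) and under both stricter filters on low counts (0.0602 and 0.0582). Cox4i1, the form used in most tissues, was at 432 ± 22.5 CPM in WT normoxia and 484 ± 100.4 CPM in WT OIR, and at 451 ± 29.0 and 514 ± 69.6 CPM in the Casp1 KO groups, with no call (adjusted p = 0.603 and 0.139).

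Set as a share of the reads of both forms, Cox4i2 gave 7.61% ± 0.85 in WT normoxia, 7.41% ± 3.48 in WT OIR, 5.56% ± 0.35 in Casp1 KO normoxia and 10.5% ± 1.67 in Casp1 KO OIR (SD, n = 3). The libraries of Casp1 KO OIR, at 9.62%, 9.46% and 12.4%, all exceeded those of Casp1 KO normoxia, at 5.16%, 5.77% and 5.76%. In WT OIR the share was 10.3% and 8.42% in replicates 1 and 2 and 3.54% in replicate 3. For Cox6b2 and Cox7a1 the Casp1 KO groups overlapped. Cox6b2, known as the testis form, made up 12.7% ± 2.53 and 16.2% ± 3.16 of the Cox6b reads in Casp1 KO normoxia and OIR, and Cox7a1, the heart and muscle form, 0.952% ± 0.641 and 0.796% ± 0.070 of the reads of Cox7a1 and Cox7a2. Cox8b, another heart and muscle form, was at 10.7, 10.9 and 10.7 CPM in WT normoxia and 7.10, 3.87 and 2.91 CPM in WT OIR. These groups did not overlap, but the difference missed the threshold (log2 -1.25 ± 0.42, adjusted p = 0.0714), which it passed with all 12 libraries in one fit (0.0426) and without WT OIR replicate 1 (0.0245). In Casp1 KO Cox8b was at 10.2, 9.30 and 9.18 CPM in normoxia and 13.6, 10.5 and 6.79 CPM in OIR (log2 0.11 ± 0.35).

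**Figure D3:**
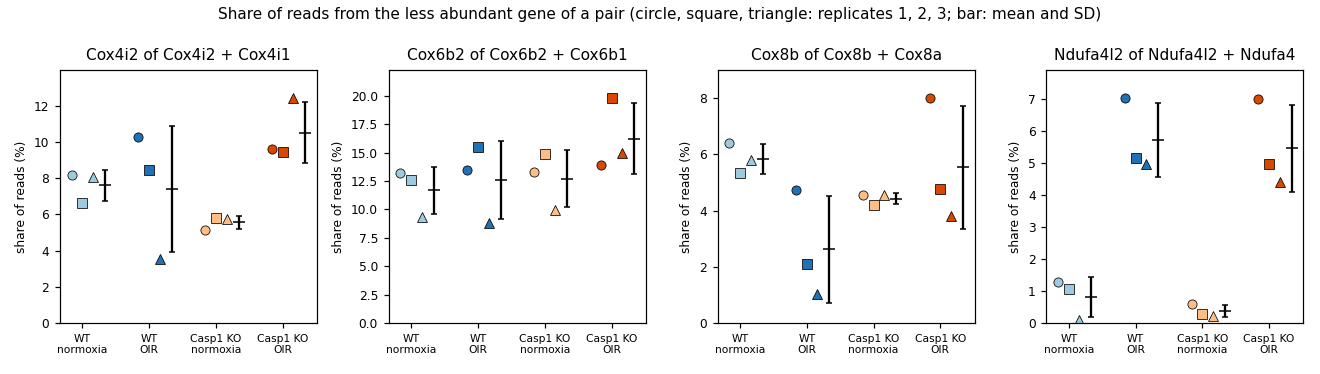
Share of the reads (y axis, percent, from 0) that came from the less abundant gene of 4 pairs in each library, with the mean and SD of 3 libraries. The Cox4i2 share is 9.46% to 12.4% in Casp1 KO OIR and 5.16% to 5.77% in Casp1 KO normoxia, and the Ndufa4l2 share is 4.40% to 7.04% in all 6 OIR libraries and at most 1.28% in normoxia.

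Cox7b, a small subunit on the surface of complex IV, is encoded on chromosome X from 106015700 to 106022450 (plus strand, 3 exons, no overlapping gene). It was the gene with the smallest p among those that fell in Casp1 KO and the single call in WT. In Casp1 KO its levels were 187, 169.9 and 180.2 CPM in normoxia and 128, 92.0 and 118 CPM in OIR. The groups were apart, with a fall of 36.5% (log2 -0.66 ± 0.11, adjusted p = 1.01e-07). In WT they were 221, 167 and 215 CPM in normoxia and 129, 136 and 169 CPM in OIR. WT OIR replicate 3 was above WT normoxia replicate 2, so the groups overlapped (log2 -0.48 ± 0.14, adjusted p = 0.0156).

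Cox7c, another small subunit of the complex, varied widely between libraries. It was at 133, 205 and 198 CPM in Casp1 KO normoxia and 96.9, 111 and 156 CPM in Casp1 KO OIR, where replicate 3 was above the lowest normoxia library (log2 -0.54 ± 0.10, adjusted p = 3.22e-05). By DESeq2 its adjusted p was 0.291. In WT OIR it ran from 52.4 CPM in replicate 1 to 203 CPM in replicate 3, a range wider than that of WT normoxia, from 117 to 185 CPM. Cox7c overlaps Gm22574 on the same strand. Of the 75-base words in the last 300 bases of its transcript, 99.1% also occur in the annotated genes Gm10012 and Gm12338, so its count depends on how the reads that match both were handled, which is not given in the sources used here. Cox7a2, the broadly used form of subunit 7a, has no such copy and lies on chromosome 9 from 79755361 to 79759878. It was at 492, 523 and 522 CPM in Casp1 KO normoxia and 417, 394 and 371 CPM in Casp1 KO OIR. All OIR libraries were lower (log2 -0.37 ± 0.08, adjusted p = 0.000272), while in WT the levels of 421 to 519 CPM in OIR overlapped those of 450.4 to 517 CPM in normoxia (log2 -0.08 ± 0.12).

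Cox6c, the gene with the most reads, was at 1213, 1340.3 and 1257 CPM in Casp1 KO normoxia and 1025, 1107 and 979 CPM in Casp1 KO OIR, without overlap (log2 -0.28 ± 0.07, adjusted p = 0.00146). It overlaps Vps13b on the other strand and shares 31.4% of its 3' words with Cox6c2, so part of its count is uncertain. With all 12 libraries in one fit its adjusted p was 0.0534. Cox5a, a nuclear subunit of the complex, was not called. It was at 200, 189 and 195 CPM in WT normoxia and 144, 149 and 186 CPM in WT OIR, without overlap (log2 -0.30 ± 0.14, adjusted p = 0.303), and at 205 ± 8.37 and 196 ± 16.1 CPM in the Casp1 KO groups (log2 -0.05 ± 0.09). Without WT OIR replicate 3 its log2 fold change was -0.42 (adjusted p = 0.0135). Ndufa4, first described in complex I and now placed in complex IV, was at 186 ± 46.4 and 166 ± 56.5 CPM in WT and 187 ± 30.4 and 159.8 ± 8.08 CPM in Casp1 KO (adjusted p = 0.623 and 0.309). Cox6a1, Cox6b1, Cox6b2, Cox7a1, Cox7a2l and Cox8a were not called in either genotype, with log2 fold changes from -0.71 for Cox7a1 in WT to 0.21 for Cox6b2 in Casp1 KO.

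**Figure D4:**
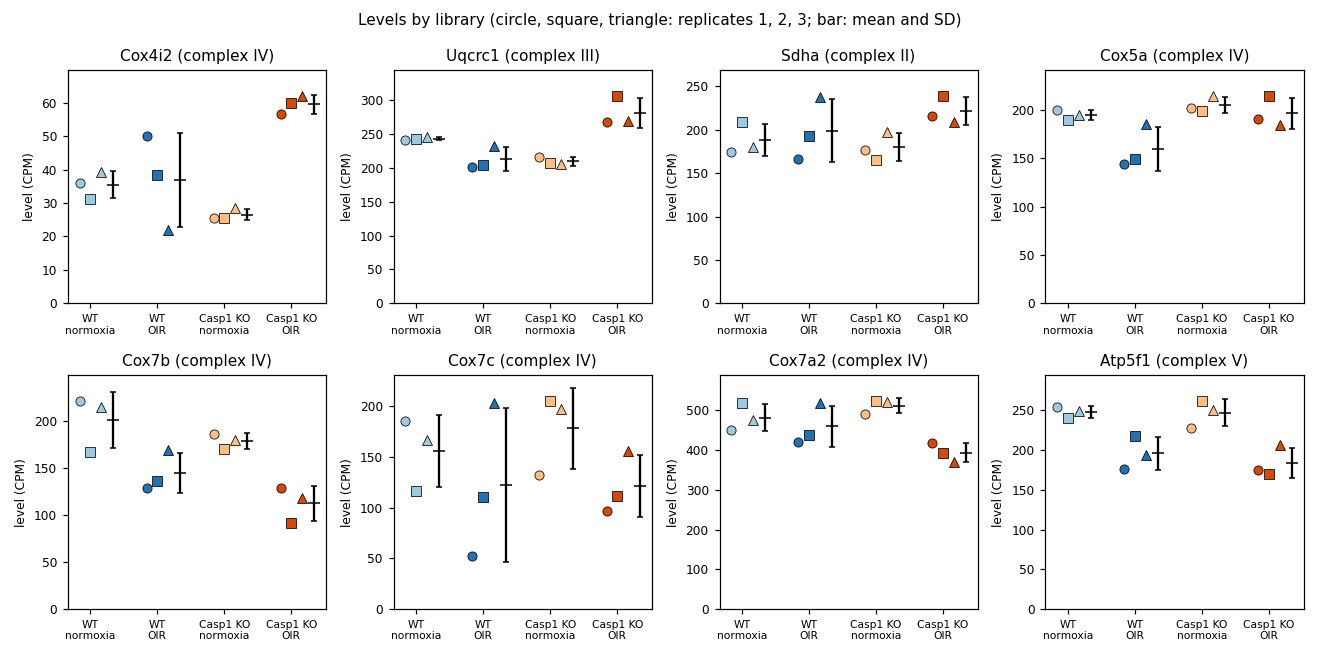
Level in CPM (y axis, from 0) of 8 members in each library of the 4 groups (x axis). Points are libraries, with the replicate given by the shape, and bars are the mean and SD of 3. Cox4i2, Uqcrc1 and Sdha are higher in Casp1 KO OIR than in Casp1 KO normoxia, Cox7b, Cox7a2 and Atp5f1 are lower without overlap, and Cox7c runs from 52.4 to 203 CPM among the WT OIR libraries.

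In complex III, Uqcrc1 stood apart from its partners. It encodes core protein 1, a matrix-side subunit of the complex, on chromosome 9 from 108936633 to 108949623 (plus strand, 13 exons, no overlapping gene). In Casp1 KO it was at 217, 207 and 205 CPM in normoxia and at 268, 307 and 269 CPM in OIR. The groups were apart, with a rise of 35.5% (log2 0.44 ± 0.09, adjusted p = 0.000108). In WT it was at 241, 242 and 245 CPM in normoxia and at 201, 205 and 233 CPM in OIR, all lower, though short of the threshold (log2 -0.20 ± 0.13, adjusted p = 0.542). The interaction was 0.61 ± 0.16 on the log2 scale (adjusted p = 0.0181). It missed the threshold without WT OIR replicate 2 (0.0580), without Casp1 KO normoxia replicate 2 (0.0624) or 3 (0.0680) and without Casp1 KO OIR replicate 2 (0.111), and was 0.68 (adjusted p = 0.000298) without WT OIR replicate 3. Uqcrb, the ubiquinone-binding protein of the complex, fell in Casp1 KO from 266 ± 7.80 to 213 ± 16.004 CPM (log2 -0.31 ± 0.09, adjusted p = 0.0190). It shares 34.1% of its 3' words with Gm16089 and Gm5457, so part of its count is uncertain. Its call was lost without Casp1 KO normoxia replicate 1 (0.0503), 2 (0.0919) or 3 (0.0664), without Casp1 KO OIR replicate 2 (0.0561) or 3 (0.0623) and with all 12 libraries in one fit (0.115). In WT it was at 267 ± 20.9 and 209 ± 27.9 CPM, which missed the threshold (log2 -0.37 ± 0.13, adjusted p = 0.0977). The other 7 genes of the complex, Cyc1 for cytochrome c1 among them, were not called in either genotype.

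In complex II all 4 genes were fitted above 0 in Casp1 KO and 1 was called. Sdha, the flavoprotein that oxidises succinate, lies on chromosome 13 from 74322254 to 74350280 (minus strand, 15 exons) and overlaps Gm16125 on the other strand. It was at 177, 166 and 198 CPM in Casp1 KO normoxia and 215, 239 and 209 CPM in Casp1 KO OIR. All OIR libraries were higher, by 23.96% (log2 0.31 ± 0.10, adjusted p = 0.0286). The call was lost by DESeq2 (0.0535), with all 12 libraries in one fit (0.212) and without any single one of 4 libraries, Casp1 KO normoxia replicates 1 (0.137) and 2 (0.268) and Casp1 KO OIR replicates 1 (0.0691) and 2 (0.234). In WT Sdha was at 175, 209 and 180 CPM in normoxia and 166, 193 and 238 CPM in OIR, fully overlapping (log2 0.07 ± 0.13). Sdhb, the iron-sulfur subunit, and the membrane anchors Sdhc and Sdhd had log2 fold changes of 0.04 ± 0.10, 0.20 ± 0.13 and 0.96 ± 0.49 in Casp1 KO and of -0.18 ± 0.14, 0.05 ± 0.16 and 0.03 ± 0.55 in WT. Sdhd was at 2.58 to 12.3 CPM and rests on 12 to 68 reads a library.

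In complex I none of the 35 genes rose and 4 fell in Casp1 KO, and none was called in WT. Ndufb2, Ndufb5 and Ndufb11 are accessory subunits of the membrane arm. They fell by 0.37 ± 0.11, 0.35 ± 0.10 and 0.29 ± 0.09 on the log2 scale in Casp1 KO (adjusted p = 0.0161, 0.0130 and 0.0429). In WT their log2 fold changes were -0.38 ± 0.14, 0.03 ± 0.13 and 0.12 ± 0.13, so only Ndufb2 pointed the same way. Ndufs4, an accessory subunit of the matrix arm known from a mouse model of mitochondrial disease, went from 102, 93.8 and 97.1 CPM to 66.7, 77.7 and 67.3 CPM, without overlap (log2 -0.45 ± 0.13, adjusted p = 0.0144). In WT it was at 100.02 ± 12.6 and 83.7 ± 3.83 CPM (log2 -0.27 ± 0.15, adjusted p = 0.476). All 4 calls were lost without Casp1 KO normoxia replicate 1 (adjusted p from 0.0866 to 0.192) and without Casp1 KO OIR replicate 3 (from 0.0504 to 0.119). Without Casp1 KO normoxia replicate 2 the calls of Ndufb2 (0.0554) and Ndufb11 (0.110) were lost, without replicate 3 those of Ndufb5 (0.108), Ndufb11 (0.174) and Ndufs4 (0.0632), without Casp1 KO OIR replicate 1 that of Ndufs4 (0.0747) and without replicate 2 that of Ndufb11 (0.0758). With all 12 libraries in one fit those of Ndufb2 (0.0762), Ndufb5 (0.0773) and Ndufb11 (0.184) were lost. Ndufs1, the largest core subunit, was at 107 ± 12.5 and 89.7 ± 7.21 CPM in Casp1 KO (log2 -0.24 ± 0.12, adjusted p = 0.373) and at 110 ± 6.99 and 119 ± 14.7 CPM in WT (log2 0.11 ± 0.15). Over the 35 genes the median log2 fold change was -0.16 in Casp1 KO and -0.08 in WT.

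In complex V, Atp5f1, Atp5h, Atp5j2 and Atp5k fell in Casp1 KO and none rose. All belong to the membrane part of the ATP synthase or the stalk that holds it to the catalytic head. Atp5f1, the b subunit of that stalk, lies on chromosome 3 from 105942698 to 105960099 and overlaps Wdr77 and Gm42890 on the other strand. It was at 228, 261 and 251 CPM in Casp1 KO normoxia and 175, 169.9 and 206 CPM in Casp1 KO OIR. The groups were apart (log2 -0.41 ± 0.09, adjusted p = 0.000706). In WT the levels were 255, 240.3 and 249 CPM in normoxia and 176, 218 and 194 CPM in OIR, likewise without overlap but short of the threshold (log2 -0.35 ± 0.13, adjusted p = 0.130). Atp5k, the e subunit, was at 580.3, 532 and 569 CPM in Casp1 KO normoxia and 468, 485 and 383 CPM in Casp1 KO OIR (log2 -0.32 ± 0.08, adjusted p = 0.00200), a call lost without Casp1 KO OIR replicate 3 (0.1005). Atp5j2, the f subunit, and Atp5h, the d subunit, fell by 0.33 ± 0.08 and 0.34 ± 0.10 on the log2 scale (adjusted p = 0.00254 and 0.0281). Atp5h shares 25.2% of its 3' words with Gm10250, so part of its count is uncertain. The Atp5j2 call was lost without Casp1 KO normoxia replicate 1 (0.126), and the Atp5h call without Casp1 KO normoxia replicate 2 (0.0519) or 3 (0.395) or Casp1 KO OIR replicate 1 (0.0843) or 2 (0.0768) or with all 12 libraries in one fit (0.105). Atp5b, the catalytic subunit, was instead at 655, 676 and 656 CPM in Casp1 KO normoxia and 681, 713 and 719 CPM in Casp1 KO OIR, all higher but not called (log2 0.10 ± 0.07, adjusted p = 0.567). In WT Atp5b was at 628 ± 19.3 and 591 ± 129 CPM. Of the reads of the 3 genes for the c ring subunit, Atp5g3 gave 88.2% ± 0.26 and 87.8% ± 4.56 in WT normoxia and OIR and 88.7% ± 1.15 and 87.9% ± 1.53 in the Casp1 KO groups. Atp5g1 gave 10.9% to 11.8% in the group means and Atp5g2, whose 3' end is shared with other annotated genes, 0.414% to 0.634%.

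In WT, OIR against normoxia gave 0 genes higher and 1 lower of 83 by edgeR, and 0 in either direction by DESeq2. The background was 1.58% called higher and 2.29% called lower of all genes tested, and 2.78% and 5.14% of genes of at least 10 CPM. The 1 call was Cox7b. It was lost by DESeq2 (0.0505), under both stricter filters on low counts (0.0755 and 0.0652) and without WT normoxia replicate 1 (0.214) or 3 (0.183) or WT OIR replicate 1 (0.111) or 2 (0.115). Of the 83 genes, 55 (66.3%) were fitted below 0, against 47.2% of all genes and 53.4% of those of at least 10 CPM, and their median was -0.13 against 0.04 and -0.02. The median in Casp1 KO was -0.11. The median SE was 0.136 in WT and 0.099 in Casp1 KO, so the counts of calls do not compare the size of the change. The WT groups did not overlap for 3 genes that were higher and for 12 that were lower, where 8.53% of all genes and 10.6% of those of at least 10 CPM were higher without overlap and 8.16% and 14.5% lower.

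Without WT OIR replicate 3, 15 of the 83 genes fell in WT and none rose, with a median of -0.18, when 6.50% of genes of at least 10 CPM fell. They were Ndufa1, Ndufa3, Ndufa8, Ndufb3, Ndufb10, Uqcrb, Uqcrfs1, Cox5a, Cox7b, Cox7c, Ndufa4, Atp5b, Atp5f1, Atp5g3 and Atp5h. Of these 15, 5 were also among the 13 that fell in Casp1 KO, namely Atp5f1, Atp5h, Cox7b, Cox7c and Uqcrb, which is 33.3% of the first list and 38.5% of the second. The same overlap over all genes was not counted. WT OIR replicate 3 was left out because these same genes were high in it. The falls without it follow in part from that choice and are no separate support.

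**Figure D5:**
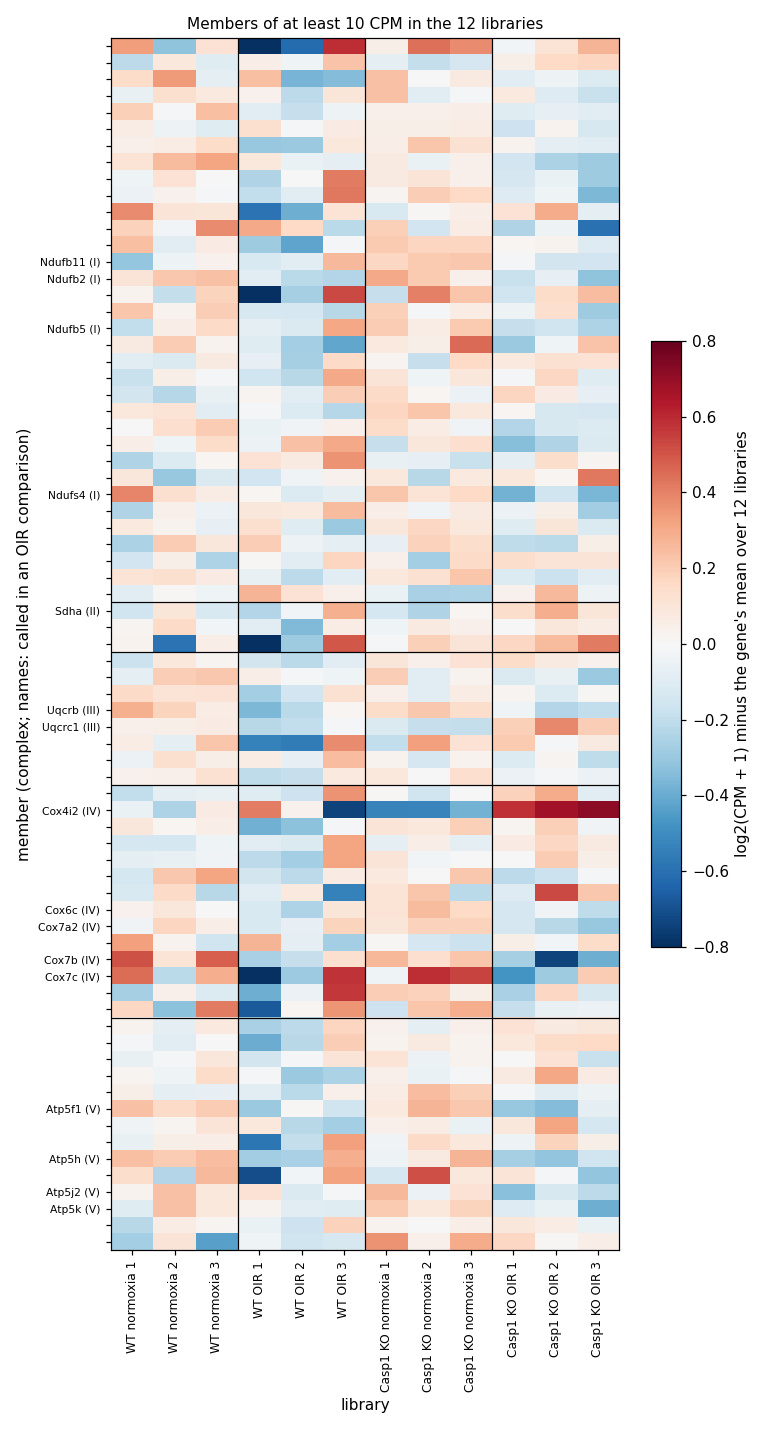
Level of the 73 members of at least 10 CPM (rows, by complex) in the 12 libraries (columns), as log2(CPM + 1) minus the gene's mean over the libraries, from blue below to red above, with colours capped at 0.8 and black lines between groups and complexes; names mark the genes called between OIR and normoxia in either genotype. WT OIR replicates 1 and 2 are mostly blue and replicate 3 mostly red, with medians of -0.0959, -0.156 and 0.0960, while the Casp1 KO OIR libraries have medians of -0.0342, 0.0115 and -0.0694.

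The WT and Casp1 KO comparisons of OIR share no library. Of the 82 genes tested in both, 37 were fitted below 0 in both, 15 above 0 in both, 17 below in WT and above in Casp1 KO, and 13 the reverse. Of the 13 that fell in Casp1 KO, 11 were fitted below 0 in WT, all but Ndufb5 and Ndufb11. Over all genes tested, 47.2% were fitted below 0 in WT and 50.2% in Casp1 KO. The joint shares over all genes were not counted, nor was the share below 0 in WT among all genes called lower in Casp1 KO. The 11 of 13 is therefore not set apart from what other genes that fell would give. In the interaction 2 genes were called, Cox4i2 and Uqcrc1, both higher in Casp1 KO. The background was 0.604% of all genes tested called higher and 0.527% called lower, or 1.47% and 1.04% of those of at least 10 CPM. The median interaction of the 83 genes was 0.00, and it was 0.13 without WT OIR replicate 3, when the calls were Ndufa1, Ndufa8 and Uqcrc1.

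Between the genotypes in normoxia no gene of the 83 passed the threshold by edgeR. The background was 0.476% called higher and 0.56% called lower of all genes tested, or 0.976% and 1.23% of those of at least 10 CPM. Nearest to it was Ndufb11, at 171, 206 and 217 CPM in WT and 238, 245 and 246 CPM in Casp1 KO (log2 0.30 ± 0.09, adjusted p = 0.0683), which DESeq2 called. Cox4i2 was lower in Casp1 KO, without a call (log2 -0.41 ± 0.20, adjusted p = 0.541). So was Uqcrc1 (log2 -0.21 ± 0.09, adjusted p = 0.428). The interactions of these genes take in these differences in normoxia. In OIR, Cox4i2 was the 1 gene of 82 that was higher in Casp1 KO than in WT, with 59.5 ± 2.85 against 36.7 ± 14.05 CPM (log2 0.71 ± 0.19, adjusted p = 0.0383). None was lower by edgeR or DESeq2. The background was 0.263% higher and 0.312% lower of all genes tested, or 0.615% and 0.668% of those of at least 10 CPM. The call was lost by DESeq2 (0.151), under both stricter filters (0.290 and 0.258) and without WT OIR replicate 2 (0.204) or 3 (0.195) or any of the Casp1 KO OIR replicates 1 (0.105), 2 (0.189) and 3 (0.266). Without WT OIR replicate 3 there were instead 12 genes higher in Casp1 KO, Uqcrc1, Atp5b and Cox5a among them, and none lower, when 4.69% of genes of at least 10 CPM were higher. Here too the library left out was chosen by the levels of these genes, so this count follows in part from that choice.

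Transcript length was also set beside the changes. The median annotated mRNA of the 83 genes was 838 bases long, from 360 to 4715. In Casp1 KO the median log2 fold change was -0.18 for the 34 genes of at least 10 CPM below that length and -0.04 for the 39 others, and over all genes of at least 10 CPM -0.06 for 347 below it and 0.02 for 8766 others. Spearman's rho between length and log2 fold change was 0.24 across the 73 genes in Casp1 KO and 0.09 in WT, against -0.06 and 0.05 across 9113 genes of at least 10 CPM. These are values across genes that share the same libraries and are not replicates.

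Other genes of respiration were counted from lists, for which the background is again 1.58% of all genes tested called higher and 2.29% lower in WT and 2.61% and 2.03% in Casp1 KO, or 2.78% and 5.14% and 5.39% and 4.38% of genes of at least 10 CPM. None of the listed assembly factors of complexes I (14 tested), II (4), III (6) and V (3) was called in either OIR comparison. Of 17 tested for complex IV, Surf1 rose in Casp1 KO, from 39.8 ± 6.19 to 61.9 ± 9.57 CPM (log2 0.64 ± 0.16, adjusted p = 0.00311), and was also called in the interaction (log2 0.97 ± 0.25, adjusted p = 0.0145). Of the mitochondrially encoded subunits, 3 of 10 tested fell in WT and 5 of 12 in Casp1 KO and none rose. The genes tested take in some of ND3, COX2, COX3, ATP6 and ATP8, which had at most 8 reads in a library. In WT the means of ND5 (1911 to 2182 CPM), ND6 (1646 to 1710 CPM) and COX1 (1311 to 1356 CPM) were higher in OIR, and those of ND1, ND2, ND4 and CYTB were lower. ND1 of complex I went from 5313 ± 56.7 to 3812 ± 515 CPM in WT (log2 -0.49 ± 0.10, adjusted p = 0.000118) and from 5372 ± 55.3 to 3992 ± 79.6 CPM in Casp1 KO (log2 -0.42 ± 0.05, adjusted p = 2.24e-12). None of 9 regulators of mitochondrial biogenesis was called, with Ppargc1a at 145 ± 5.56 and 131 ± 5.27 CPM in WT and 144 ± 14.01 and 135 ± 5.60 CPM in Casp1 KO, and Tfam at 36.5 ± 4.91 and 25.4 ± 2.41 CPM and 36.2 ± 6.82 and 31.05 ± 4.65 CPM. Of 13 enzymes of the tricarboxylic acid cycle, 1 fell in each genotype, Idh3a in WT (log2 -0.50 ± 0.14, adjusted p = 0.0169) and Sucla2 in Casp1 KO (log2 -0.48 ± 0.14, adjusted p = 0.0169).

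Cycs, the electron carrier between complexes III and IV, fell in both genotypes. It was at 57.4, 62.8 and 45.9 CPM in WT normoxia and 34.5, 35.2 and 33.3 CPM in WT OIR (log2 -0.71 ± 0.19, adjusted p = 0.00866), and at 54.0, 57.5 and 54.8 CPM in Casp1 KO normoxia and 31.6, 25.6 and 37.6 CPM in Casp1 KO OIR (log2 -0.79 ± 0.17, adjusted p = 0.000345). The groups did not overlap in either genotype. The WT call was lost without WT normoxia replicate 1 (0.0617) or 2 (0.163).

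Of 6 respiration genes known to respond to low oxygen, 2 rose in WT and 3 in Casp1 KO. Ndufa4l2, a relative of Ndufa4 that low oxygen induces, had 14, 33 and 1 reads in WT normoxia and 33, 51 and 63 in WT OIR, and 5, 2 and 2 in Casp1 KO normoxia and 51, 39 and 37 in Casp1 KO OIR. In CPM these were 1.39 ± 1.14, 9.64 ± 1.70, 0.659 ± 0.225 and 9.16 ± 1.94 (n = 3 each). It rose in both genotypes, without overlap (adjusted p = 5.45e-05 in WT and 4.30e-07 in Casp1 KO), and the interaction was not called (adjusted p = 0.823). Bnip3, a mitophagy receptor of the same list, rose by 0.48 ± 0.15 in WT and 0.45 ± 0.12 in Casp1 KO on the log2 scale (adjusted p = 0.0298 and 0.00939), and Cox4i2 was the third in Casp1 KO. Higd1a, Lonp1 and Pdk1 were not called.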

How the data were processed

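QuantSeq 3' libraries (Lexogen; single reads of 75 bases) of mouse retina were aligned by the authors to mm10 with STAR 2.7.5a and counted per gene with HTSeq 0.6.1, and the raw read counts were deposited as one table of 12 libraries. The annotation, the strand setting and the rule for reads that match several genes are not given in the sources used here. Columns were assigned to groups by their labels, and no column was left unmapped.

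Genes with at least 1 count were tested with edgeR 4.0.16 (R 4.3.3), by its quasi-likelihood test with TMM factors and a prior count of 0.125. Each pairwise comparison used its own 6 libraries and the interaction all 12. Adjusted p-values (Benjamini-Hochberg, over all genes tested) under 0.05 were called. SEs are the absolute log2 fold change over the square root of F. Levels are CPM on the TMM scale of the 12 libraries. Alternatives were DESeq2 1.42.0, other scalings and filters, a replicate block, one fit to all libraries and leaving out each library. The code was tested on simulated data.

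The members and gene lists were chosen with earlier results of these data known. The genes named were up to 4 called members in each direction with the smallest p in each OIR comparison, up to 3 in each direction in the other comparisons, a main subunit per complex, the tissue-specific forms, and Ndufa4l2, Cycs, Ppargc1a and Tfam. All other genes were named after their values were seen. Some genes are not reported by name here. Positions are from GENCODE vM21 (GRCm38). With 3 libraries against 3, an exact permutation test could not go below 0.1, so none was used.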

Additional observations from a re-analysis of the deposited data

Results flagged for a closer look

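The change from normoxia to OIR differed between the genotypes for 2 respiratory chain genes by edgeR's test of the interaction. For Cox4i2 the change in Casp1 KO minus that in WT was 1.12 on the log2 scale (SE 0.27, adjusted p = 0.00702), with all 3 Casp1 KO OIR libraries above all 3 Casp1 KO normoxia libraries and the WT OIR libraries on both sides of WT normoxia. For Uqcrc1 it was 0.61 (SE 0.16, adjusted p = 0.0181), with the OIR libraries above normoxia in 3 of 3 Casp1 KO and below it in 3 of 3 WT libraries. The Cox4i2 call was lost by DESeq2 (0.0522), under both stricter filters on low counts (0.0602 and 0.0582) and without WT OIR replicate 3 (0.0565). That of Uqcrc1 was lost without WT OIR replicate 2 (0.0580), Casp1 KO normoxia replicate 2 (0.0624) or 3 (0.0680) or Casp1 KO OIR replicate 2 (0.111). Both genes were also lower in Casp1 KO than in WT in normoxia, without a call, and the interaction takes in this difference. Groups of 3 were too small for a test of single samples that stand apart.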

How the results depend on the processing

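No direction of a called gene was reversed, while 34 of 505 values of named genes without a call changed sign. Of 1059 values recomputed under an alternative, 948 stayed on their side of the threshold or within the limits set for counts and medians. These 948 include the 505 values without a call in either fit, which counted as unchanged whatever their sign. The number of genes that fell in WT OIR, 1 in the report, was 0 by DESeq2, 0 after filterByExpr, 0 with at least 10 counts in each library, 3 with the replicate block and 4 with all 12 libraries in one fit, and 0 to 15 when a library was left out. In Casp1 KO the 13 that fell became 7 with all 12 libraries in one fit and 7 to 12 when a library was left out, and the 3 that rose became 2 to 5. Between genotypes in normoxia, the count of higher genes was 1 by library size alone, 1 by DESeq2 (Ndufb11 in both) and 0 to 1 with a library left out. In OIR it was 0 by DESeq2, 0 after filterByExpr, 0 with at least 10 counts in each library, 2 with all 12 libraries in one fit and 0 to 12 with a library left out, where the median ran from -0.019 to 0.15. The 2 higher interactions became 1 by DESeq2, 1 after filterByExpr, 1 with at least 10 counts in each library and 1 to 3 with a library left out, with 0 to 1 lower and medians of -0.053 to 0.13. The cause of these shifts was not tested. Correlations of deviations ran from -0.0606 to 0.0873 for same-numbered libraries and from -0.104 to 0.137 for others. With 3 libraries a group these values cannot settle whether libraries are paired, and the labels do not say so. The replicate block is therefore given as an alternative only. It moved no other count by over 1.5 times. Genes under 10 CPM rest on few reads, which limits their precision.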
